A study of Mus musculus with 100 samples.

Results

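The genes described here are 10 genes of the Wnt pathway, chosen by symbol: the carrier Wls, the ligand Wnt3, and the targets and effectors Axin2, Sp5, Lef1, Tcf7, Tcf7l1, Notum, Nkd1 and T. They are 10 of the 24210 named genes in the deposited tables, and all of them were measured in each of the 100 mRNA libraries. The libraries come from V6.5 mouse embryonic stem (ES) cells, a hybrid ES line grown on feeder fibroblasts in medium with serum and the cytokine LIF. Per the labels, the cells were depleted of feeders, transfected with 1.8 µg of a plasmid for a short hairpin RNA (shRNA). Puromycin was added at 24 h, and selection lasted 72 h. There were 47 knockdown groups and 3 control groups of 2 libraries each, and every group, controls included, was ES cells that had received a hairpin plasmid and puromycin.

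The knockdowns fall into 3 sets by the control that their labels name. Set B held 25 knockdowns with control_B: 7 of the Mediator head (shMed6, shMed8, shMed11, shMed17, shMed18, shMed20 and shMed22), 7 of the middle (shMed4, shMed7, shMed9, shMed10, shMed19, shMed21 and shMed31), 4 of the upper tail (shMed27, shMed28, shMed29 and shMed30), shMed26, 4 of the kinase module (shCcnc, shCdk8, shMed12 and shMed13) and 2 of the SAGA coactivator (shGcn5 and shUsp22). Set A held 15 knockdowns of TFIID, the factor that binds core promoters (shTbp and the TAF subunits), and 5 of the Mediator tail (shMed15, shMed16, shMed23, shMed24 and shMed25), with control_A. Set C held shMed1 and shMed14 with control_C. Mediator is the coactivator that links transcription factors to RNA polymerase II. The modules were assigned from general knowledge. The design text asks which subunits of both complexes matter most for transcription as a whole and names no Wnt question.

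The target gene of the hairpin was read first, as a percentage of the mean of its control libraries. In set B it stood at 14.2 to 60.5% in replicate 1 libraries (median 26.6%) and at 14.5 to 68.9% in replicate 2 libraries (median 27.3%). In set A it stood at 15.9 to 59.0% in replicate 2 libraries (median 34.0%) but at 56.9 to 173% in replicate 1 libraries (median 102%), which goes against the labels of those libraries. Only replicate 2 libraries were therefore used for set A knockdowns, so each has 1 library. In set C the labelled target stood at 61.5 and 66.0% in replicate 1 libraries and at 97.9 and 99.1% in replicate 2 libraries, so set C libraries are called by their labels. Whether paired libraries of a group are separate cultures is not stated, so p-values measure only the spread between libraries, which may be technical. Values are RPKM, reads scaled by transcript length and library depth, and the estimated depth of a library was 17.25 to 39.33 M reads.

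Wnt proteins are lipid-modified signals that need the carrier Wls to leave the cell. At a receiving cell they bind Frizzled receptors and Lrp5 or Lrp6, which halts the breakdown of β-catenin, and β-catenin then joins TCF/LEF factors on DNA. Axin2, a scaffold of the β-catenin destruction complex, Sp5, a zinc finger factor, Nkd1, which binds Dishevelled, and Notum, a secreted enzyme that strips the lipid from Wnt proteins, are feedback targets. T (Brachyury) is a Wnt target of the primitive streak. In mouse ES cells Wnt signals help to sustain self-renewal, and Tcf7l1 acts mainly as a repressor there.

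Of the 10 genes, 9 had an entry in the RefSeq promoter table (build GRCm38.p6, 250 bases before to 50 after each start). The promoters below are those of Wls and Wnt3 and of the targets Axin2, Sp5 and T, which were called higher together in several knockdowns. Capitals mark the TCF/LEF core CTTTG on either strand (CAAAG when on the other strand), and all 5 are on the plus strand: Wls chr3:159839400-159839699, Wnt3 chr11:103773925-103774224, Axin2 chr11:108920099-108920398, Sp5 chr2:70474673-70474972 and T chr17:8434173-8434472.
Wls: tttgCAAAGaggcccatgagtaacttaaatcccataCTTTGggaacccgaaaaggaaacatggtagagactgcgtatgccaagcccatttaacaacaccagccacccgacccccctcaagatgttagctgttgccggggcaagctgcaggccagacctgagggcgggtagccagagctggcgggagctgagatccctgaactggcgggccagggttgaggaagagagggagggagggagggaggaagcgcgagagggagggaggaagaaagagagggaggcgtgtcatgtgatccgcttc
Wnt3: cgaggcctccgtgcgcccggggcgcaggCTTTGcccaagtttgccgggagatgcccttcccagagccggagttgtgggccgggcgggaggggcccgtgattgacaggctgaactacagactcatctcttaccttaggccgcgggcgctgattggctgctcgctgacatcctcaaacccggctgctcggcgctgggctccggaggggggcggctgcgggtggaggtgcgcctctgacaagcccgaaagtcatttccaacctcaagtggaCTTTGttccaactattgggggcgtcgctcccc
Axin2: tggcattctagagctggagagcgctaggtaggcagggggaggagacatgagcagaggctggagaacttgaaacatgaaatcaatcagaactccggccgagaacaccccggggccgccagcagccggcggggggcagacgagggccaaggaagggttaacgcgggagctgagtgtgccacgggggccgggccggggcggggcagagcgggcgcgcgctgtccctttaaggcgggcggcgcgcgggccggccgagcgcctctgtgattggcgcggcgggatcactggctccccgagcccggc
Sp5: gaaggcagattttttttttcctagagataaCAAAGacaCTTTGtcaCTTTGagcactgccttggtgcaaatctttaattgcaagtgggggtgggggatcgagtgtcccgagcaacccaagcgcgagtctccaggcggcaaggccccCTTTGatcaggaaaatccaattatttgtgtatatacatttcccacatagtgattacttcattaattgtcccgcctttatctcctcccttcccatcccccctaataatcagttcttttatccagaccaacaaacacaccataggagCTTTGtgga
T: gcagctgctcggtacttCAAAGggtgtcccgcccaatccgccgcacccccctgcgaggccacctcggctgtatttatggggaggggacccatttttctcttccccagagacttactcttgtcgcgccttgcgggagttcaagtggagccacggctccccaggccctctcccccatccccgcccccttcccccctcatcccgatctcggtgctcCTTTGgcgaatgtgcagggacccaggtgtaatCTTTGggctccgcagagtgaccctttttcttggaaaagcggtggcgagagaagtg
The core occurred 5 times in the Sp5 window, 3 times in the T window, 2 times each in those of Wls and Wnt3, and not in that of Axin2. A core is found in 53.9% of the 32851 mouse promoter windows. The longer forms CTTTGAA or CTTTGAT, which contain the core, occur in 8.65% of windows. Among these 5 genes they were found at -104 from the start in Sp5 (CTTTGAT) and at -235 in T (as TTCAAAG). None of these 5 windows held TATAAA on either strand, which 13.6% of all windows hold. A match describes letters in a window and is not evidence of a bound site.

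Wls rose in most Mediator knockdowns of set B. It was called higher in 20 of the 23 and lower in none (limma, two-sided, on log2(RPKM + 1), Benjamini-Hochberg adjusted p under 0.05 over 12506 genes), where 16.4% of all gene and knockdown pairs were called higher and 16.1% lower. Over all 25 knockdowns of set B these shares were 16% and 15.4%, and of the 250 pairs of the 10 genes 79 were called higher and 64 lower. The exceptions were shCdk8, shMed21 and shMed29. Of all genes tested, 1.53% were called higher in as many knockdowns. Without control_B replicate 1 Wls was called higher in 14 of the 23, and without control_B replicate 2 in 22. All comparisons of set B use the same 2 control_B libraries, so the calls for a gene are not independent of each other.

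Wls stood at 25.6 and 24.7 RPKM in shMed10, against 2.99 and 4.05 RPKM in control_B. It reached 23.7 and 25 RPKM in shMed4 and 23.4 and 23 RPKM in shMed12, against the same controls. These 3 knockdowns had the highest Wls of set B. All their libraries lay above both control_B libraries, as did 31.2% of all gene and Mediator knockdown pairs (32.4% lay below both). The ratio of means to control_B was 7.14 in shMed10, 6.91 in shMed4 and 6.60 in shMed12, and the log2 fold changes were 2.54, 2.5 and 2.43 (each ± 0.08, SE), with adjusted p = 2.62e-22, 5.14e-22 and 1.09e-21. Wls was also high in shMed28 (22.0 and 21.4 RPKM), shMed19 (19.7 RPKM in each library) and shMed30 (15.5 and 16.4 RPKM). At the other end, shCdk8 had 3.41 and 3.79 RPKM, within the control_B range. The 2 SAGA knockdowns were close to control_B too, with 3 and 3.43 RPKM in shGcn5 and 3.77 and 3.62 RPKM in shUsp22. In the head module Wls means ran from 4.56 to 6.78 RPKM, and in the middle module from 4.16 to 25.1 RPKM.

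Wnt3, a secreted ligand that acts through β-catenin, was called higher in 13 of the 23 Mediator knockdowns, a count that 8.00% of all genes reached. It was called lower in shMed21 and shMed29. It had 7.52 and 6.87 RPKM in shMed4, 6.52 and 5.91 RPKM in shMed10, and 5.47 and 5.24 RPKM in shMed12, against 1.35 and 1.01 RPKM in control_B. These groups lay above both control_B libraries, as did 31.2% of all gene and Mediator knockdown pairs. The mean was 7.20 ± 0.46 RPKM in shMed4 and 1.18 ± 0.24 RPKM in control_B (SD, n = 2 each), a log2 fold change of 1.91 ± 0.09 (SE, adjusted p = 2.98e-18). In shMed29 it was 0.858 and 0.690 RPKM, against 1.35 and 1.01 RPKM in control_B (log2 fold change -0.30, adjusted p = 0.0189). Without control_B replicate 1 Wnt3 was called higher in 15 and lower in 0.

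Axin2, the feedback scaffold, was called higher in 10 of the 23 Mediator knockdowns, a count that 14.0% of all genes reached. It was called lower in shMed22. Its highest levels were 9.66 and 9.34 RPKM in shMed12 and 9.40 and 8.94 RPKM in shMed19, against 4.76 and 4.99 RPKM in control_B. The change was smaller than that of Wls: in shMed12 its log2 fold change was 0.84 ± 0.07 (SE, adjusted p = 1.63e-12). The lowest level in a Mediator knockdown was 4.24 and 3.95 RPKM in shMed22, a call that was lost without control_B replicate 2.

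Sp5 was called in both directions. It was called higher in 10 of the 23, a count that 14.0% of all genes reached. It was called lower in shCcnc, shCdk8, shMed21 and shMed7, and 36.5% of all genes were called lower in as many. Without control_B replicate 1 no lower call was left (12 higher, 0 lower), and without replicate 2 there were 8 higher and 5 lower. It had 6.47 and 5.77 RPKM in shMed4, 6.05 and 5.06 RPKM in shMed19 and 5.34 and 4.57 RPKM in shMed12, against 2.12 and 1.36 RPKM in control_B. In shMed7 it had 0.757 and 0.894 RPKM and in shCdk8 0.870 and 0.955 RPKM, all below both control_B libraries. Of all gene and Mediator knockdown pairs, 32.4% lay below both. The log2 fold change was 1.39 ± 0.14 in shMed4 (adjusted p = 4.23e-10) and -0.57 ± 0.14 in shMed7 (SE, adjusted p = 0.00115).

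T, the mesoderm factor, was low in control_B, with 0.468 and 0.508 RPKM. It reached 2.6 and 1.81 RPKM in shMed12, 2.28 and 2.09 RPKM in shMed19 and 2.12 and 1.95 RPKM in shMed30. It was called higher in 10 of the 23, a count that 14.0% of all genes reached, and lower in none. The shMed12 mean was 4.52 times the control_B mean (log2 fold change 1.10 ± 0.11 SE, adjusted p = 1e-09). The added 1 RPKM makes this fold change smaller than the ratio of levels. T rested on few reads, with an estimated median of 29 per library over all 100 libraries. Below 1 RPKM in control_B, it passed the filter of at least 1 RPKM in 2 libraries only through knockdowns where it was high. Its higher calls are to be read with that limit, and under the stricter alternative filter T was not tested.

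**Figure D1:**
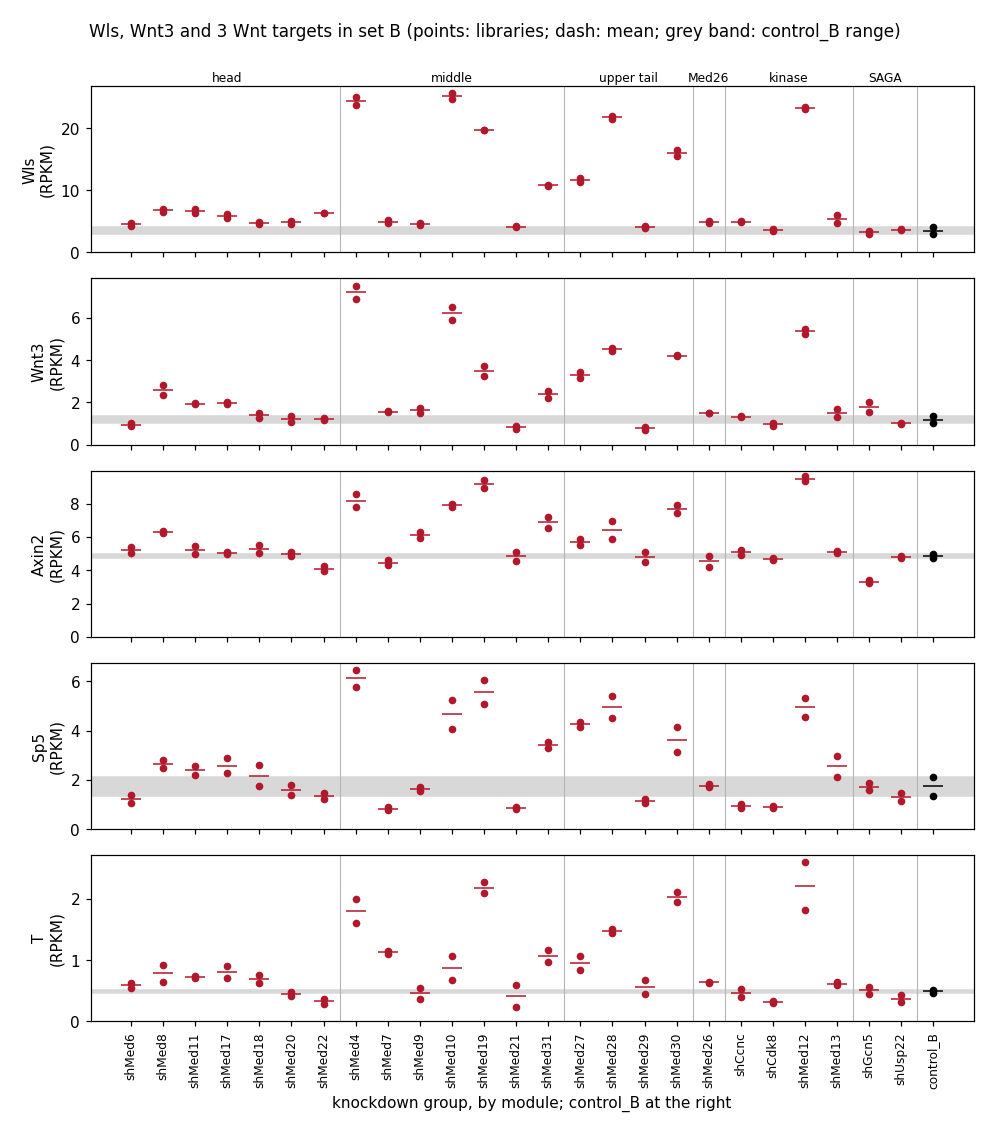
Levels (RPKM) of Wls, Wnt3, Axin2, Sp5 and T in each set B library, by knockdown and module, with control_B at the right; points are libraries, dashes the mean of 2, and the grey band the range of control_B. Wls is at 23 to 25.6 RPKM in shMed4, shMed10 and shMed12, against 2.99 and 4.05 RPKM in control_B, and the same 3 knockdowns hold high Wnt3.

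Wls, Wnt3, Axin2, Sp5 and T were all called higher in 8 Mediator knockdowns: shMed4, shMed10, shMed19 and shMed31 of the middle module, shMed27, shMed28 and shMed30 of the upper tail, and shMed12 of the kinase module. The residual target level in these 8 was 16.7 to 25.7% of control_B, a range that also held shGcn5 (17.4%), shMed7 (25.3%) and shCdk8 (25.5%), and shCcnc was lower (14.3%). Of all genes tested, 29.8% were called higher in shMed4, 31.5% in shMed10, 23.2% in shMed19, 17.7% in shMed31, 21.0% in shMed27, 32.3% in shMed28, 33.0% in shMed30 and 27.3% in shMed12. The 8 were named after their values were seen.

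Notum changed the opposite way. It was called lower in 18 of the 23 Mediator knockdowns and higher in none, and 1.74% of all genes were called lower in as many. Without control_B replicate 1 Notum was called lower in 12, and without replicate 2 in 18. It had 0.829 and 0.666 RPKM in shMed12, 0.720 and 0.997 RPKM in shMed28 and 0.965 and 0.780 RPKM in shMed19, against 5.05 and 4.35 RPKM in control_B. These libraries lay far below both controls, where 32.4% of all gene and Mediator knockdown pairs lay below both. The shMed12 mean was 15.9% of the control_B mean (log2 fold change -1.71 ± 0.11 SE, adjusted p = 2.82e-14). In shMed21 Notum had 5.24 and 4.91 RPKM, within or above the control_B range. It was called lower in the SAGA knockdowns as well, with 2.71 and 2.6 RPKM in shGcn5 (adjusted p = 4.6e-05) and 3.13 and 3.48 RPKM in shUsp22 (adjusted p = 0.034).

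Among the DNA-binding partners of β-catenin, Lef1 fell in most Mediator knockdowns. It was called lower in 19 of the 23 and higher in shMed26 alone, and 1.24% of all genes were called lower in as many. Without control_B replicate 1 Lef1 was called lower in 15, and without replicate 2 in 17. It had 2.66 and 2.06 RPKM in shMed12, 2.78 and 3.25 RPKM in shMed17 and 3.25 and 2.99 RPKM in shMed19, against 7.05 and 6.83 RPKM in control_B. In shMed26 it had 11.6 and 10.8 RPKM, above both control_B libraries, as were 31.2% of all gene and Mediator knockdown pairs. The log2 fold change was -1.25 ± 0.09 in shMed12 (adjusted p = 2.77e-13) and 0.62 ± 0.09 in shMed26 (SE, adjusted p = 3.63e-06). Med26 is a Mediator subunit linked to elongation factors.

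Tcf7, which mostly activates with β-catenin, varied little. It was called lower in 13 of the 23, a count that 6.66% of all genes reached, and higher in none. Its lowest level, 13.1 and 11.9 RPKM in shMed28, compares with 17.5 and 18.9 RPKM in control_B (log2 fold change -0.51 ± 0.06 SE, adjusted p = 2.86e-09). Without control_B replicate 2 Tcf7 was called lower in 7 knockdowns. Tcf7l1, the repressor, was called higher in 11, a count that 11.3% of all genes reached, and lower in shMed26 and shMed7. Its count also turned on the controls, with 5 higher and 3 lower without control_B replicate 2 and 16 higher and 0 lower without replicate 1. It had 23.6 and 22.7 RPKM in shMed6, against 18.4 and 16.4 RPKM in control_B (log2 fold change 0.39 ± 0.06 SE, adjusted p = 2.35e-05). In shMed4, where Wls was near its maximum, Tcf7l1 had 16.1 and 16.3 RPKM, a log2 fold change of -0.10 that did not pass the test (adjusted p = 0.16).

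Nkd1 was called in 2 knockdowns only, both higher: shMed10, with 1.31 and 1.28 RPKM, and shMed4, with 0.950 and 1.09 RPKM, against 0.724 and 0.606 RPKM in control_B. The log2 fold changes were 0.47 ± 0.09 (adjusted p = 3.86e-05) and 0.28 ± 0.09 (SE, adjusted p = 0.00812). Without control_B replicate 2, 1 of these calls was left. Of all genes, 48.8% were called higher in as many knockdowns. Nkd1 was below 1 RPKM in control_B and in most knockdowns. It passed the filter of at least 1 RPKM in 2 libraries through few libraries, among them both of shMed10. Its calls are to be read with that limit, and under the stricter alternative filter it was not tested. With a median of 51 estimated reads per library over all 100 libraries, small changes in Nkd1 were not detectable.

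**Figure D2:**
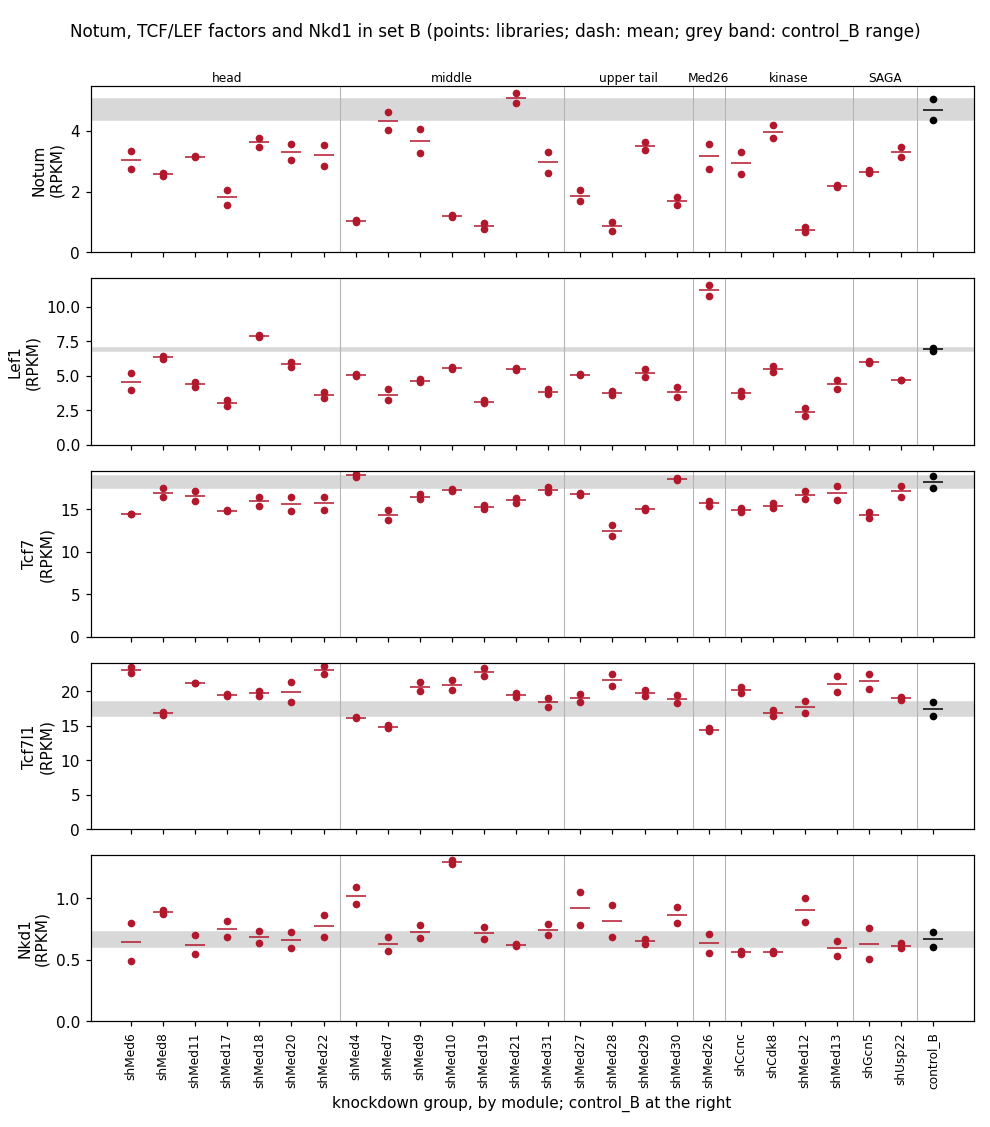
Levels (RPKM) of Notum, Lef1, Tcf7, Tcf7l1 and Nkd1 in each set B library, laid out like the plot of Wls and its companions. Notum is at 0.666 to 0.997 RPKM in shMed12, shMed19 and shMed28, against 4.35 and 5.05 RPKM in control_B, and Lef1 is above control_B in shMed26.

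Averaged over the 23 Mediator knockdowns, Wls rose by 1.01 ± 0.06 on the log2 scale (SE, adjusted p = 6.97e-15), beside a median of -0.01 over all genes tested. In that mean 38.7% of all genes were called, 19.4% higher and 19.3% lower, and 9 of the 10 genes were: Wls, Wnt3 (0.54 ± 0.06), Axin2 (0.21 ± 0.05), Sp5 (0.31 ± 0.10), T (0.32 ± 0.08) and Tcf7l1 (0.14 ± 0.04) higher, and Notum (-0.73 ± 0.08), Lef1 (-0.49 ± 0.07) and Tcf7 (-0.18 ± 0.04) lower. Nkd1 had 0.07 ± 0.07 (SE, adjusted p = 0.451). Leaving out a control library ended 4 of the smaller calls. Without control_B replicate 2 the mean change of Sp5 was 0.10 (adjusted p = 0.623), that of Tcf7 -0.13 (0.0948) and that of Tcf7l1 0.06 (0.513), and without control_B replicate 1 that of T was 0.30 (0.0601). When all 100 libraries shared 1 estimate of the spread, Wls and Notum were still called, and Wnt3, Axin2, Sp5, Lef1, Tcf7, Tcf7l1 and T were not (adjusted p 0.198 to 0.588). That estimate also holds the spread within same-label pairs of sets A and C. The target levels of most set A replicate 1 libraries and of both set C replicate 2 knockdown libraries go against their labels. In that fit Wls was called higher in 8 of the 23 knockdowns, Wnt3, Axin2, Sp5 and T each in 5, and Notum was called lower in 8 and Lef1 in 3.

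**Figure D3:**
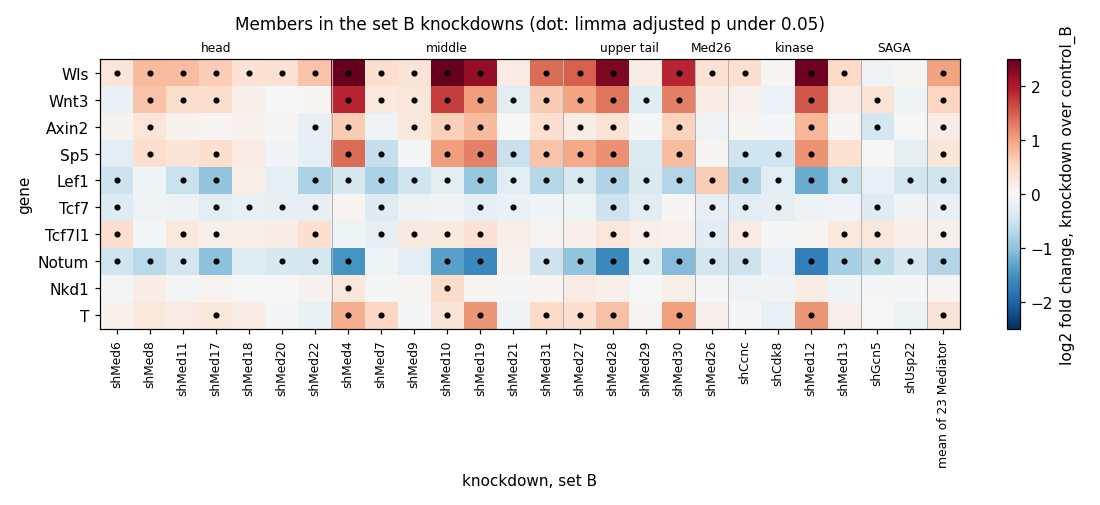
Log2 fold change over control_B (colour) of the 10 genes in the 25 set B knockdowns, by module, and in the mean of the 23 Mediator knockdowns at the right; dots mark an adjusted p under 0.05. The row of Wls is raised in 20 of the 23 Mediator columns and strongest in shMed4, shMed10, shMed12 and shMed28, and the rows of Notum and Lef1 are mostly lowered.

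Within the kinase module, shMed12 differed from the other 3 knockdowns. In shMed12 Wls was at 23.4 and 23 RPKM, while it was at 4.89 and 4.99 RPKM in shCcnc, 3.41 and 3.79 RPKM in shCdk8 and 6.06 and 4.77 RPKM in shMed13. A contrast of shMed12 with the other 3 kinase knockdowns, added after these levels were seen, gave 2.12 ± 0.07 for Wls (log2, adjusted p = 2.49e-22), 1.5 for Wnt3, 1.34 for Sp5, 1.12 for T and 0.82 for Axin2, and -1.18 for Notum and -0.71 for Lef1. In that contrast 60.9% of all genes were called. The target fell to 25.7% of control in shMed12, 14.3% in shCcnc, 25.5% in shCdk8 and 37.7% in shMed13.

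Set against each other as modules, with the knockdown mean as the unit, limma called none of the 10 genes. In the kinase module (n = 4) minus the head and middle modules (n = 14), limma called 0 of 12498 genes, and the difference in Wls was -0.12 (95% interval -1.02 to 0.79). In the head module minus the middle module (n = 7 each) limma called 1 gene (0.008%) and none of the 10, with -0.80 for Wls (95% interval -1.66 to 0.05, adjusted p = 0.627) and -0.31 for Axin2 (unadjusted p = 0.0445, adjusted p = 0.627). Knockdowns of 1 module differed widely, as did shMed4 (7.20 RPKM) and shMed21 (0.818 RPKM) of the middle module in Wnt3.

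Of the 10 genes, 5 were called in shGcn5 (Wnt3 and Tcf7l1 higher, Axin2, Tcf7 and Notum lower) and 2 in shUsp22. In shGcn5 (Gcn5 is the product of Kat2a, which stood at 17.4% of control) Axin2 was at 3.21 and 3.4 RPKM, against 4.76 and 4.99 RPKM in control_B, its lowest level in set B (log2 fold change -0.45 ± 0.07 SE, adjusted p = 2.56e-06). Wnt3 was higher in shGcn5, with 2.01 and 1.54 RPKM (adjusted p = 0.00256), while Wls was not called, and 33.6% of all genes were called. In shUsp22, Lef1 (4.72 and 4.73 RPKM, adjusted p = 0.00122) and Notum were the only 2 of the 10 called, both lower, where 4.28% of all genes were called.

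Across the 25 knockdown means of set B, Wls and Wnt3 had a Pearson correlation of 0.943, and Wls and Notum one of -0.886. Without shMed4 and shMed10, the knockdowns farthest from the median of Wls, these were 0.921 and -0.865 (n = 23). The same libraries carry every gene, so these are descriptions and were not tested. The genes whose levels followed Wls most closely were Msx2 (0.980), a homeobox target of BMP and Wnt signals, Unc5b (0.967), a netrin receptor, and Tceal5 (0.961). For Wnt3 they were Zyx (0.960), Grip1 and Efnb1, for Axin2 Mtmr4 (0.935), Prrg3 and Afap1l2, for Sp5 Clasp1 (0.958), Arnt2 and Prtg, and for T Eps8l2 (0.922), Ctdsp1 and Hnrnpr. Notum was followed by Wdr74 (0.949), Ranbp17 and Fam169a, Nkd1 by Sh3bgr (0.898), Ptprt and Trpv2, and Lef1 by Pou3f1 (0.835), Fam162a and Myc. The nearest genes to Tcf7 and Tcf7l1 were less close, with Togaram1 at 0.712 and Tasor at 0.804.

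Other ligands rose beside Wnt3 in the Mediator mean, in which 19.4% of all genes were called higher and 19.3% lower. Of 19 Wnt ligand genes, 8 passed the filter on low values, and 5 of these were called higher and none lower: Wnt4 (0.51 ± 0.06), Wnt7b (0.46 ± 0.06) and Wnt9a (0.40 ± 0.07) followed Wnt3 (log2, SE). Wnt4 averaged 5.16 ± 0.19 RPKM in shMed4, against 1.24 ± 0.02 RPKM in control_B (SD, n = 2 each). Of 14 receptors and coreceptors tested, 7 were called higher, led by Fzd2 (0.39 ± 0.08), and 2 lower, among them Fzd5 (-0.37 ± 0.04), which averaged 4.58 RPKM in shMed4 and 10.2 RPKM in control_B. Fzd1, among the 7, averaged 0.951 RPKM in control_B and passed the filter only through knockdowns where it was higher. The count is to be read with that limit. None of 3 tested genes of the R-spondin axis was called.

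Among the inhibitors, calls went in both directions. Of 7 secreted or membrane inhibitors tested, Kremen1, a Dickkopf coreceptor, was called higher (0.24 ± 0.04), and Sfrp2 (-0.44 ± 0.08) and Sfrp1 (-0.18 ± 0.05), which bind Wnt proteins, lower. Sfrp2 was called lower in 16 of the 23 knockdowns. Of 15 tested genes of Wnt secretion and cytoplasmic transduction, 4 were called higher and 1 lower, a share below the 38.7% of all genes called, with log2 changes up to 0.15 (Tnks2) in the genes named. Of 12 nuclear cofactors, 4 were higher and 3 lower, led by Bcl9l (0.52 ± 0.04), a coactivator of β-catenin.

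Of 13 other canonical targets tested, 4 were called higher and 2 lower in the Mediator mean, beside 19.4% and 19.3% of all genes. Msx1, among the 4, averaged 0.761 RPKM in control_B and passed the filter on low values only through knockdowns where it was higher. The count is to be read with that limit. Msx2 (0.82 ± 0.07) averaged 10.3 ± 0.40 RPKM in shMed12, against 1.51 ± 0.29 RPKM in control_B (SD, n = 2 each). Myc fell (-0.56 ± 0.03), to 10.2 RPKM in shMed12, against 25 RPKM in control_B. Of 8 genes that Tcf7l1 represses in ES cells, 5 were lower and 1 higher, led by Nr0b1 (-0.86 ± 0.08), which averaged 6.21 RPKM in shMed4 and 31.9 RPKM in control_B. Nanog and Esrrb of this list are also among the ES cell markers below, so these counts share genes. Among mesendoderm partners of T, 1 of 3 tested was higher (Eomes, 0.15 ± 0.05), which is also a trophectoderm marker. The median over each of these lists ran from -0.36 for the genes repressed by Tcf7l1 to 0.30 for the ligands, beside -0.01 over all genes.

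Markers of cell state also differed from control_B, both within and outside the 8 knockdowns with the 5 raised genes. All 8 ES cell markers were called lower in the Mediator mean, in which 19.4% of all genes were called higher and 19.3% lower. In control_B their summed level was 1570 and 1620 RPKM. In the 16 libraries of the 8 knockdowns with the 5 raised genes it was 741 to 1500 RPKM. Outside the 8, it was 1160 and 1140 RPKM in shMed17 and 1160 and 1120 RPKM in shMed7, but 1620 and 1570 RPKM in shMed21. Of 9 trophectoderm markers tested, 8 were higher. The sum of the list was 277 to 720 RPKM in the 16 libraries of the 8 knockdowns, against 134 and 138 RPKM in control_B. Outside the 8, it was 518 and 435 RPKM in shMed17, but 139 and 145 RPKM in shMed18. In shMed4 most of the trophectoderm sum was Krt18 (mean 320 RPKM) and Krt8 (227 RPKM). Krt7 averaged 19.2 RPKM and Gata3 6.45 RPKM there. In control_B Krt18 averaged 66.7 RPKM, Krt7 4.17 RPKM and Gata3 1.18 RPKM. Cdx2, also a trophectoderm factor, was called higher in 4 and lower in 9 of the 23 knockdowns. Of 13 fibroblast feeder markers, 7 passed the filter on low values, and 5 of these were higher. They were led by Acta2 (1.74 ± 0.07) and Tagln (1.42 ± 0.04), which other contractile cells also express. Col1a1, Col1a2 and Col5a2 were below 1 RPKM in control_B and passed the filter only through knockdowns where they were higher. The count is to be read with that limit. The sum of that list was 127 to 494 RPKM in the 8 knockdowns, against 43.9 and 47 RPKM in control_B, and without Acta2 and Tagln 6.95 to 16 RPKM, against 7.38 and 7.42 RPKM. Outside the 8, the sum of the whole list was 208 and 178 RPKM in shMed17, but 50.0 and 51.9 RPKM in shMed7. The collagens of the list were higher in some of the 8 knockdowns. Col1a1 was 4.03 and 3.78 RPKM in shMed12 and 3.43 and 2.78 RPKM in shMed10, against 0.479 and 0.292 RPKM in control_B, and Col5a2 was 1.83 and 2.21 RPKM in shMed10, against 0.164 and 0.167 RPKM. Col1a2 and Col3a1 were also above both control_B libraries in shMed10 and shMed12, as were 31.2% of all gene and Mediator knockdown pairs. Thy1, of the same list, went the other way and did not pass the filter. It was 0.612 and 0.479 RPKM in shMed10, 0.520 and 0.600 RPKM in shMed12 and 0.274 RPKM in each shMed19 library. In control_B it was 0.840 and 0.676 RPKM. Twist1 was called higher in 1 and lower in 1 of the 23 knockdowns. The feeder markers Postn, Lum and Dcn were at or near 0 throughout set B, with highest levels of 0.04, 0.0511 and 0.222 RPKM. Of 10 primitive endoderm markers, 2 were higher and 3 lower. The part of these markers in the Wnt gene changes was not tested, and in bulk RNA fewer cells of a type and less RNA per cell cannot be told apart.

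In set A the clearest difference among the 10 genes was in Lef1, which was lower in the Mediator tail knockdowns than in the TFIID knockdowns. In TFIID replicate 2 libraries Lef1 ran from 4.98 to 19.6 RPKM (median 7.86, n = 15), in tail replicate 2 libraries from 2.71 to 6.14 RPKM (median 3.38, n = 5), and in control_A it was 7.65 and 7.66 RPKM. All 5 tail libraries lay below both controls, as did 33.8% of all gene and library pairs of the tail, and shTaf4b, shTaf12 and shTbp overlapped with the tail library shMed15. The TFIID knockdowns minus the tail knockdowns gave 1.10 ± 0.21 on the log2 scale (SE, limma adjusted p = 0.00658), the only one of the 10 called, where 7.4% of all genes were called. Neither class differed from control_A in Lef1 by the test: the TFIID difference was 0.17 (adjusted p = 0.87) and the tail difference -0.93 (unadjusted p = 0.0136, adjusted p = 0.583). The highest Lef1 was 19.6 RPKM in shTaf5, followed by 14.8 RPKM in shTaf3.

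Against control_A, 0.237% of genes were called for TFIID and 0.0653% for the tail, none of the 10 among them. Wls was above both controls in 5 of 5 tail libraries and in 10 of 15 TFIID libraries, where 35.8% and 42.9% of gene and library pairs lay above both. It was 24.0 RPKM in shTaf12 and 17.7 RPKM in shTbp, against 8.23 and 6.37 RPKM in control_A. These single libraries were the highest of TFIID. Log2 differences of at least 1 in the higher direction were found for 0.783% of all genes in shTaf12 and 1.26% in shTbp. Over all 20 replicate 2 libraries the share was 0.309% of gene and library pairs. In shTaf12 Sp5 was 6.15 RPKM, against 1.64 and 1.81 RPKM, and Wnt3 2.16 RPKM, against 0.909 and 1.08 RPKM. In shMed23, of the tail, Wls was 16.2 RPKM. Marker lists differed in these libraries too. In shTaf12 and shTbp the summed level was 769 and 844 RPKM for ES cell markers, against 1200 and 1320 RPKM in control_A, and 976 and 1040 RPKM for trophectoderm markers, against 472 and 442 RPKM. Primitive endoderm markers summed to 1580 and 2130 RPKM, against 937 and 985 RPKM, and fibroblast markers to 199 and 311 RPKM, against 111 and 100 RPKM. Their part in the Wls levels was not tested. With 1 library each, these knockdowns have no replicate check.

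**Figure D4:**
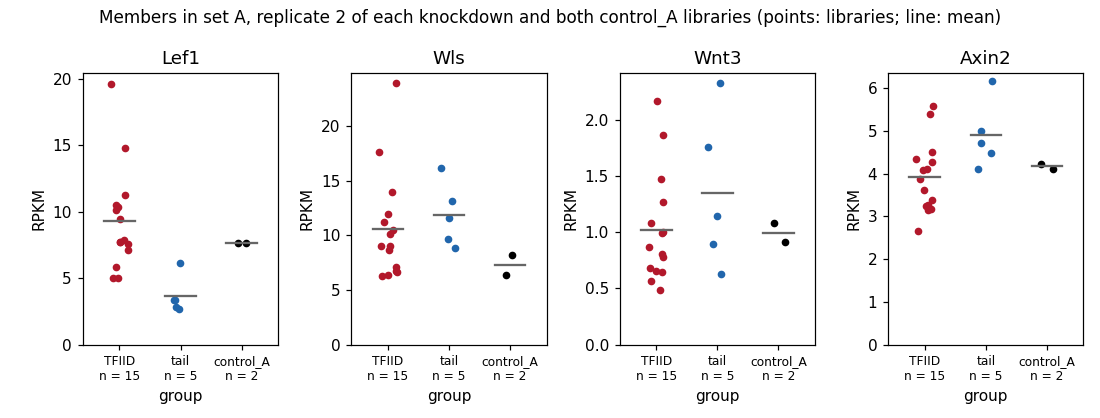
Levels (RPKM) of Lef1, Wls, Wnt3 and Axin2 in set A: replicate 2 libraries of 15 TFIID and 5 tail knockdowns and both control_A libraries, with the mean as a line. Lef1 in the tail is at 2.71 to 6.14 RPKM, below both controls at 7.65 and 7.66 RPKM, and the highest Wls among TFIID is 24.0 RPKM.

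In set C the libraries with the same label differed from each other. Wls was 2.63 and 10.8 RPKM in the libraries labelled shMed1 (replicates 1 and 2) and 10.1 and 2.27 RPKM in those labelled shMed14, against 2.28 and 1.95 RPKM in control_C. Wnt3 was 0.382 and 6.57 RPKM in those labelled shMed1 and 6.34 and 0.188 RPKM in those labelled shMed14, against 0.349 and 0.412 RPKM in control_C. T was 0.242 and 1.85 RPKM and 1.29 and 0.224 RPKM in the same order, against 0.301 and 0.314 RPKM. Under each label 1 library lay well above both controls in all 3 genes and the other did not. Lef1 was 5.00 and 3.14 RPKM in those labelled shMed1 and 2.92 and 5.78 RPKM in those labelled shMed14, against 4.25 and 5.29 RPKM in control_C. The library labelled shMed14 replicate 1 had Med14 at 61.5% of control_C, and the library labelled shMed1 replicate 2 had Med1 at 97.9% and Med14 at 67.0%. The library labelled shMed14 replicate 2 had Med14 at 99.1% and Med1 at 65.1%, so the target levels of both replicate 2 libraries go against their labels, and the values and tests by label are to be read with that limit. Fibroblast markers summed to 38.5 and 178 RPKM in the libraries labelled shMed1 (replicates 1 and 2) and to 171 and 37.1 RPKM in those labelled shMed14, against 37.8 and 32.9 RPKM in control_C. Trophectoderm markers summed to 78.3 and 167 RPKM for shMed1 and to 167 and 71.7 RPKM for shMed14, against 78.3 and 76 RPKM. ES cell markers summed to 2050 and 1350 RPKM for shMed1 and to 1510 and 1940 RPKM for shMed14, against 2120 and 2040 RPKM. Their part in the Wnt gene levels was not tested. Tested by label, limma called 0 of 11874 genes for shMed1 and 0 for shMed14 (Wls 1.07 ± 0.71, adjusted p = 0.971, and 0.96 ± 0.71, adjusted p = 0.993, log2 and SE). No direction is drawn for Med1 or Med14.

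**Figure D5:**
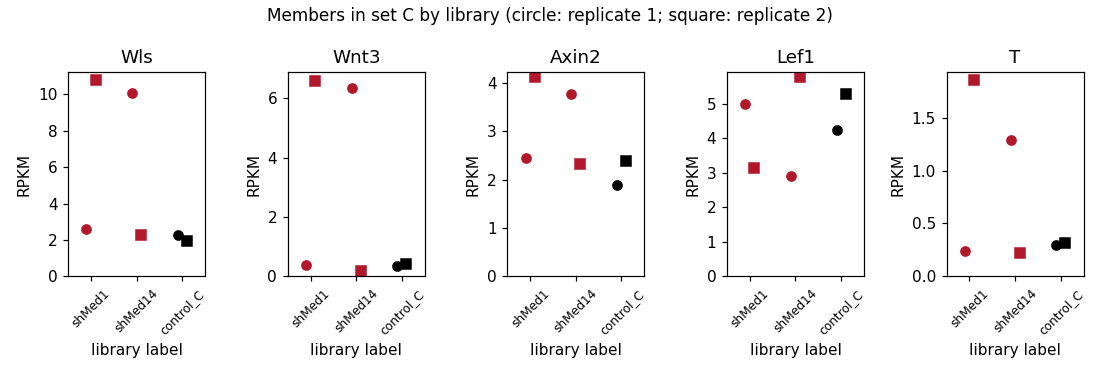
Levels (RPKM) of Wls, Wnt3, Axin2, Lef1 and T in the 6 set C libraries by label, with control_C at the right; circles are replicate 1 and squares replicate 2. Wls is 10.8 RPKM in the library labelled shMed1 replicate 2 and 10.1 RPKM in that labelled shMed14 replicate 1, against 2.28 and 1.95 RPKM in control_C.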

How the data were processed

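The members and gene lists were chosen with earlier results of these data known. The authors deposited 1 table per library with RPKM for each RefSeq transcript. Per the submitters' processing notes, reads were aligned with TopHat2 to mm9; the sources used here name no counting tool, strand setting or filter. Identifiers were named from a RefSeq table (34610 of 34995 lines) and GENCODE (195 more), and each of 24210 genes was read from the transcript whose mean RPKM over the 100 libraries was highest; for the members these are NM_026582 (Wls), NM_009521 (Wnt3), NM_015732 (Axin2), NM_022435 (Sp5), NM_001276403 (Lef1), NM_009331 (Tcf7), NM_009332 (Tcf7l1), NM_175263 (Notum), NM_027280 (Nkd1) and NM_009309 (T). RPKM values are shares of a library and cannot show a change common to all genes. Depth was estimated from the step between low RPKM values, over 3958 transcripts, of which at least 90.5% of values were whole within 0.02 reads.

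Tests used limma 3.58.1 (limma-trend) in R 4.3.3, two-sided, on log2(RPKM + 1) of genes with at least 1 RPKM in 2 libraries of the fit. Set B was 1 fit of 52 libraries (26 residual degrees of freedom), modules were compared over knockdown means, set A used 22 libraries and set C 6. Scripts were tested on simulated data. From each list, up to 4 called genes with the largest change in the Mediator mean were named, with the 3 genes nearest to each member, and for each member knockdowns among its 3 highest and 3 lowest, beside levels in other knockdowns. The 8 knockdowns that share 5 calls and the contrast of shMed12 with the other kinase knockdowns were picked after the values were seen. Alternatives were another pseudocount, filter, scaling, transcript sum, replicate block, pooled fit, control and leaving out libraries or knockdowns.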

Additional observations from a re-analysis of the deposited data

Results flagged for a closer look

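Within the kinase module, the mean of shMed12 stood apart from the other 3 knockdowns for Axin2 (9.50 RPKM) and for Nkd1 (0.902 RPKM). In the tail, shMed15 stood apart for Lef1 (6.14 RPKM). These 3 came from 50 groups of knockdowns or libraries checked, and chance alone gives about 1 in 20.

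shMed12 differed from the mean of the other 3 kinase knockdowns by a test of the difference (limma, log2): 2.12 for Wls, 1.5 for Wnt3, 0.82 for Axin2, 1.34 for Sp5, 1.12 for T, 0.27 for Nkd1 (adjusted p = 0.00191), -0.71 for Lef1, -1.18 for Notum and -0.12 for Tcf7l1 (adjusted p = 0.0464). The difference in Nkd1 was 0.20 (adjusted p = 0.0842) without shMed12 replicate 2, and that in Tcf7l1 was -0.05 (adjusted p = 0.524) without the same library. Tcf7l1 also lost its call without shMed13 replicate 1, shCcnc replicate 2 or shCdk8 replicate 2 (adjusted p 0.0832 to 0.126), without the filter (0.0712) and with all 100 libraries in 1 fit (0.343). The TFIID knockdowns differed from the tail knockdowns in Lef1 by 1.10 (adjusted p = 0.00658).

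Replicate 1 libraries of set A, which entered no main comparison, also held high values. Wls was 27.7 RPKM and Wnt3 4.35 RPKM in the library labelled shMed16 replicate 1, against at most 8.23 and 1.08 RPKM in control_A, and Sp5 was 5.25 RPKM in the library labelled shTaf13 replicate 1, against at most 1.81 RPKM. In the shTaf13 library Taf13 was at 101% of control_A and Taf12 at 24.3%. The labelled target was the lowest of the 20 set A targets in 1 of 20 replicate 1 libraries and in 20 of 20 replicate 2 libraries. No library was regrouped.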

How the results depend on the processing

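Members called in the 250 gene and knockdown pairs of set B (79 higher, 64 lower) came to 68 to 78 higher and 47 to 56 lower when libraries were left out, and to 86 and 65 with the replicate block, which also gave 5436 genes in the Mediator mean. With all 100 libraries in 1 fit they were 31 and 12. That fit called 515 genes in the Mediator mean (4835 in the set B fit) and 3959 for shMed12 against the other kinase knockdowns (7621). Its spread also came from same-label pairs of sets A and C, many with a library whose target goes against the label. The cause was not tested. Without 1 library the Mediator mean called 3078 (without control_B replicate 1) to 4899 genes. The replicate block changed no call of the 10 genes in the Mediator mean, in shMed12 against the other kinase knockdowns or in set C, and added calls in single knockdowns for Wnt3 (15 higher, against 13), Sp5 and Tcf7l1. Deviations of same-numbered libraries from their group means had weak, mostly positive correlations across set B groups (-0.0218 to 0.222, median 0.0956, and 0.0552 to 0.176 against control_B). Of 325 pairs of groups 153 were over 0.1, and since not all were, the numbers were not taken as a pairing.

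Kinase against head and middle called 1 gene with replicate 1 libraries only and 0 to 1 without 1 knockdown; head against middle called 0 without the filter and with libraries of either replicate only, and 0 to 1 without 1 knockdown. In set A, TFIID called 17 genes (29 in the main comparison) with median-of-ratios scaling, and 6 (without control_A replicate 1) to 39 when a library was left out. The tail called 15 (8 in the main comparison) without the filter and 4 (without control_A replicate 1) to 12. TFIID against tail called 419 (without shMed24) to 1663 (without shTbp), against 907. The mean of both libraries of each label gave 218, 192 and 2397, with Wls (-0.43), Wnt3 (-0.34) and Axin2 (-0.34) then called in TFIID minus tail. That setting takes in replicate 1 libraries whose target levels go against their labels, in places across the 2 classes. The library labelled shMed15 replicate 1, counted as tail, had Med15 at 105% and Taf13 at 8.83% of control_A. These calls are to be read with that limit. Lef1 in TFIID minus tail stayed at 0.88 to 1.28 throughout. With control_B as the control of set C, 1072 genes were called for shMed1 and 1104 for shMed14. The log2 change of Notum turned to -0.89 (adjusted p = 0.0236) and -0.96 (0.0207), against 0.12 and 0.05 with control_C. Notum averaged 4.7 RPKM in control_B and 1.82 RPKM in control_C, beside 2.08 RPKM for shMed1 and 1.93 RPKM for shMed14. The cause of the difference between the controls was not tested. Of 2055 values of single genes recomputed, 1980 kept both direction and call, 18 lost a call, 3 gained one and 54 changed sign. None of those 54 was called in the main comparison, and only Notum in set C was called under the alternative. Depth limits T and Nkd1.

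The sign changes were in log2 differences that did not pass the test. For the kinase module minus the head and middle modules, leaving out 1 knockdown gave -0.649 (without shMed12) to 0.15 (without shCdk8) for Wls, -0.463 to 0.104 for Wnt3, -0.202 to 0.094 for Axin2, -0.494 to 0.0516 for Sp5, -0.0357 to 0.021 for Tcf7, -0.377 to 0.126 for Notum and -0.314 to 0.112 for T. With replicate 1 libraries only T was at 0.000917, and with replicate 2 libraries only Axin2 was at -0.000167 and Tcf7 at 0.00945. For TFIID against control_A, leaving out 1 library gave -0.0773 to 0.0484 for Wnt3, -0.419 to 0.222 for Notum and -0.0437 to 0.2 for T, and for the tail -0.0833 to 0.0151 for Nkd1. For TFIID minus tail it gave -0.264 to 0.088 for Sp5 and -0.0215 to 0.0706 for Tcf7, which was at -0.0116 with upper-quartile and -0.0121 with median-of-ratios scaling. For shMed1 it gave -0.472 to 0.0633 for Lef1 and, for Tcf7, -0.069 at the lowest, with -0.015 and -0.00419 under the same scalings. For shMed14 it gave -0.549 to 0.239 for Lef1 and -0.000232 to 0.107 for Notum. With control_B as the control, shMed1 had -0.486 for Axin2, -0.062 for Sp5, -0.045 for Tcf7 and -0.369 for Tcf7l1, and shMed14 had -0.561 for Axin2, -0.0596 for Sp5 and -0.353 for Tcf7l1. Mean levels in control_B and control_C were 4.88 and 2.14 RPKM for Axin2 and 1.74 and 0.519 RPKM for Sp5. They were 18.2 and 17.3 RPKM for Tcf7 and 17.4 and 11.1 RPKM for Tcf7l1. The cause was not tested.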
